A study of Mus musculus with 10 samples.

Results

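The cytochrome P450 genes of families 1 to 4 were followed in the liver of germ-free (GF) mice that had received microbiota-derived extracellular vesicles (MEV) or vehicle. Members were the protein-coding mouse genes whose symbol begins with Cyp1, Cyp2, Cyp3 or Cyp4 and a subfamily letter in the GENCODE annotation of GRCm38, a rule that used no measured value. The annotation holds 81 such genes, of which 52 were among the 12148 genes of the count table and 29 were not listed there and were not analysed here. All 10 animals were wild-type germ-free C57BL6 mice, with 5 given MEV (GF+MEV) and 5 given PBS (GF+PBS), and 1 whole-liver RNA library came from each title M1 to M5 of a group. The age and sex of these animals are not given in the sources used here. The vesicles were given by mouth in PBS, and both groups lacked a resident microbiota.

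Cytochrome P450 enzymes are haem proteins of the endoplasmic reticulum that add oxygen to lipophilic substrates with electrons from P450 oxidoreductase (Por). Families 1 to 3 act on drugs, plant compounds, steroids and bile acids, and family 4 mainly hydroxylates fatty acids. In the liver many of them are switched on by ligand-activated receptors, with AHR acting on Cyp1a genes, CAR and PXR on Cyp2b, Cyp2c and Cyp3a genes, and PPARA on Cyp4a genes. Several mouse members also differ between the sexes through the pattern of growth hormone release.

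The 52 listed genes were Cyp1a (2), Cyp2a (4), Cyp2b (2), Cyp2c (13), Cyp2d (5), Cyp2e (1), Cyp2f (1), Cyp2g (1), Cyp2j (3), Cyp2r (1), Cyp2u (1), Cyp3a (4), Cyp4a (6), Cyp4b (1), Cyp4f (6) and Cyp4v (1) genes. Levels are given as CPM, a library's counts scaled to its size by edgeR's TMM method. A gene is called when its p-value from edgeR's quasi-likelihood test, adjusted over all 12147 tested genes by the Benjamini-Hochberg method, is under 0.05. Fold changes are GF+MEV over GF+PBS on the log2 scale, with a standard error (SE).

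Library totals ran from 15746119 to 20523649 counts. In GF+PBS, replicates 1 and 3 were alike, as were replicates 4 and 5. Over the 52 genes, log2(CPM + 1) differed by a root mean square of 0.139 within the pair of replicates 1 and 3 and of 0.144 within the pair of replicates 4 and 5. For the remaining 8 pairs within GF+PBS this value was 0.388 to 0.503, and within GF+MEV it was 0.368 to 0.662. Results are therefore also given with each of these pairs summed into 1 sample. Nothing in the labels says that the 2 livers of a pair came from 1 source, and p-values measure only the spread between these samples.

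The hepatocyte genes Alb, Apoa1 and Ttr were abundant and none of them was called. The Y-linked transcripts Ddx3y, Eif2s3y, Kdm5d and Uty were present in all 10 livers, at 9.50 CPM or more, and Xist was not in the table, the pattern of male animals. Of the Y-linked transcripts only Ddx3y was called, as higher (log2 fold change 0.30, edgeR adjusted p = 0.0485). Among markers of other cells, 1 of 3 cholangiocyte genes was called higher (Krt19, log2 fold change 3.87), and 1 of 4 endothelial (Clec4g) and 2 of 4 leukocyte genes (Cd79a, Cd79b) were called lower. Of all tested genes, 4.12% were called higher and 3.52% lower. No Kupffer, stellate, skeletal muscle, exocrine pancreas or intestine marker was called, out of 5, 5, 3, 1 and 1 in the table, and no kidney marker was listed. The summed level of the cholangiocyte markers, most of it Spp1, ran from 28.1 to 79.3 CPM in GF+MEV and from 23.2 to 29.7 CPM in GF+PBS. Spp1 was not called (log2 fold change 0.52, edgeR adjusted p = 0.133) and was highest in GF+MEV replicate 2, at 61.1 CPM. Sox9 was lower in GF+MEV, at a mean of 0.961 against 1.88 CPM, and was not called (edgeR adjusted p = 0.103). The part of these cells in the results below was not tested, and in whole liver fewer cells of a type and less RNA per cell cannot be told apart.

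Of the 52 genes, 7 were called lower in GF+MEV, Cyp2b9, Cyp2a4, Cyp2a22, Cyp2a5, Cyp2u1, Cyp3a59 and Cyp2c29, against 3.52% of all tested genes called lower. Only Cyp4a12b was called higher, 1 of 52, against 4.12% of all tested genes. In either direction 15.4% of the listed P450 genes were called, against 7.64% of all genes. With both GF+PBS pairs summed, 6 of these 8 genes were still called, and Cyp2c29 and Cyp3a59 were not. DESeq2 called 11 of the 52 lower and 2 higher, and all 8 genes were among them. The median log2 fold change of the 52 genes was -0.12, and that of all tested genes was -0.0037. Counting genes without a threshold, 31 of the 52 had a negative and 21 a positive fold change. The remaining 44 genes included the most abundant P450 of the liver. Also among them were the common readouts Cyp1a1 (AHR), Cyp2b10 (CAR), Cyp3a11 (PXR) and Cyp4a14 (PPARA). Of the genes called lower, Cyp2b9, Cyp2c29 and Cyp2a5 are listed as CAR- or PXR-responsive.

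**Figure D1:**
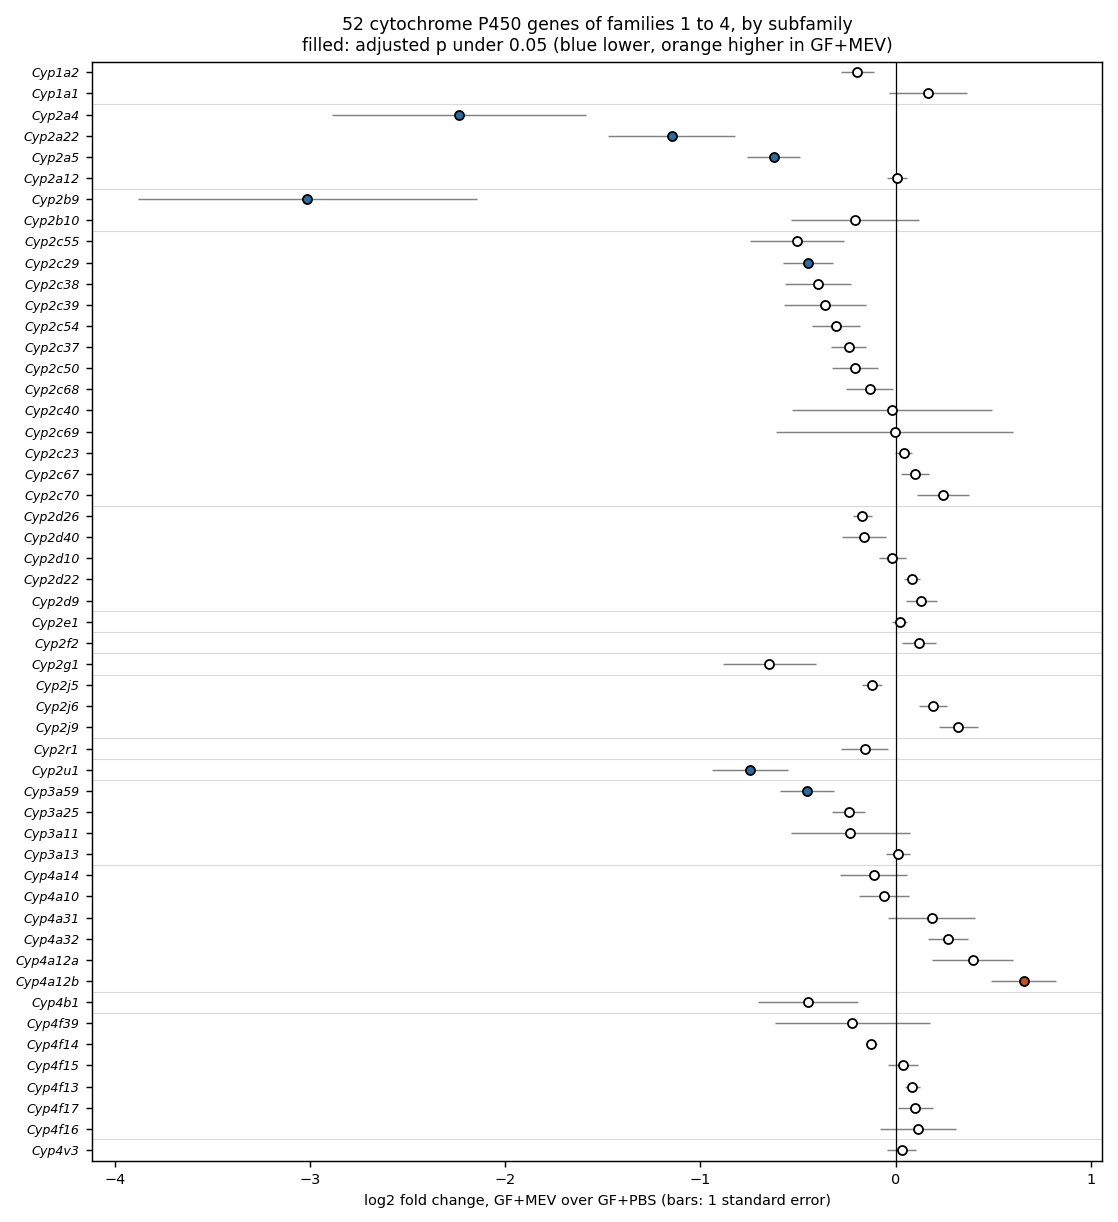
Log2 fold change (x axis) of each of the 52 P450 genes, grouped by subfamily, with 1 SE as the bar. The 7 genes called lower are filled in blue and the gene called higher, Cyp4a12b, in orange, and Cyp2b9 at -3.01 lies farthest from 0.

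Most of the called genes were weakly expressed. Per kilobase of exon and averaged over all 10 livers, Cyp2e1, the ethanol- and acetone-oxidizing P450, stood highest at 4012 CPM per kb. Cyp2c29 followed at 771.6, then Cyp1a2 at 603.3, Cyp2d26 at 589.7, Cyp2d9 at 539.1 and Cyp2a5 at 538.9 CPM per kb. The last 4 of these lay closer together than the spread between livers. The 10 genes with the highest CPM held 71.9% of the summed P450 CPM. By mean CPM, 28 genes reached 100, 17 lay between 10 and 100 and 7 lay under 10. Of the 7 genes called lower, 5 had a mean under 100 CPM.

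**Figure D2:**
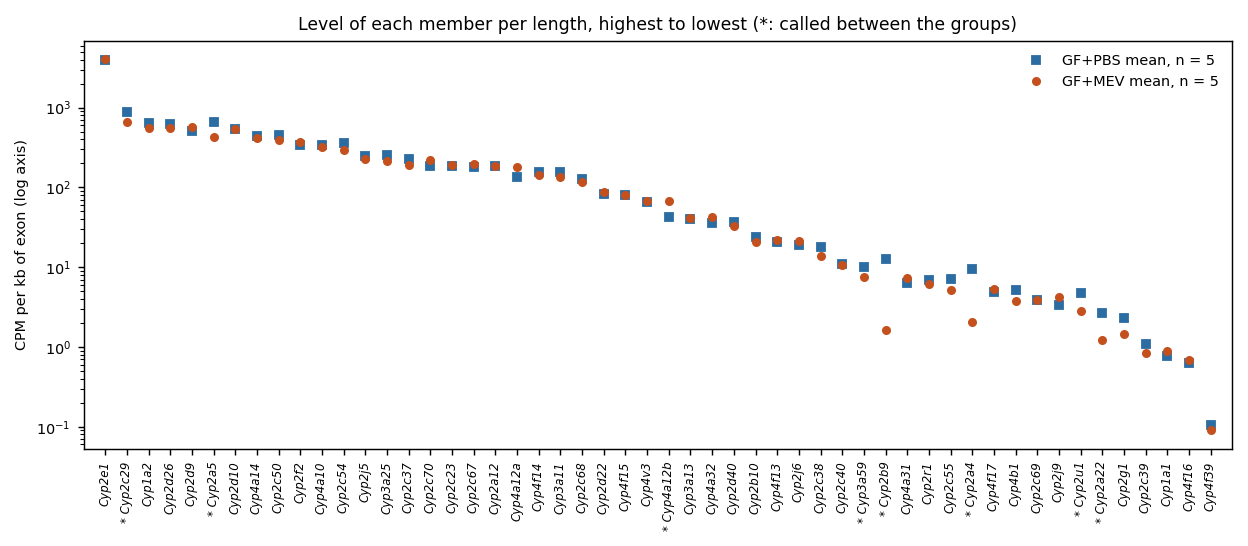
Mean CPM per kb of exon (log axis) of the 52 P450 genes in GF+PBS (squares) and GF+MEV (circles), from highest to lowest. Cyp2e1 stands apart at the top, and the wide gaps between squares and circles belong to Cyp2b9 and Cyp2a4, at 12.8 against 1.64 and 9.49 against 2.05 CPM per kb.

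Cyp2e1 itself was nearly level between the groups. Its 5 GF+MEV livers held 8813, 9158, 7925, 8504 and 9191 CPM, and its GF+PBS livers 8738, 8658, 8416, 8649 and 8536 CPM. The GF+PBS range lay inside the GF+MEV range. On the log2 scale the fold change was 0.02 (SE 0.04, edgeR adjusted p = 0.887).

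As a share of all counts, the 52 genes made up 2.43% to 2.80% of GF+MEV libraries and 2.90% to 2.98% of GF+PBS libraries, without overlap. On the TMM scale the summed level was 26710 ± 1655 CPM in GF+MEV and 28450 ± 578.2 CPM in GF+PBS (SD, n = 5), and the groups overlapped. The separation of the groups in raw shares thus depended on the scaling. The TMM factor was 0.890 for GF+MEV replicate 2 and 0.978 to 1.04 for the other libraries.

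The summed level of the subfamilies differed mainly in Cyp2a, Cyp2b and Cyp2c. Cyp2a sums ran from 1420 to 1692 CPM in GF+MEV and from 1726 to 2399 CPM in GF+PBS, so that the groups did not overlap, with Cyp2a5 holding 62.8% of the sum. Cyp2b sums ran from 21.7 to 60.6 and from 67.8 to 82.8 CPM, also without overlap. Cyp2c sums ran from 4623 to 6086 and from 6092 to 7318 CPM, groups that touched within a few CPM and that overlapped when CPM were taken without TMM factors. Cyp3a sums overlapped, at 932.5 to 1549 against 1224 to 1761 CPM. Cyp2d sums also overlapped, at 3542 to 4063 against 3502 to 3992 CPM, and so did Cyp4a sums, at 1989 to 2851 against 2152 to 2533 CPM. The difference of means was 6.24 CPM for Cyp2d and 58.4 CPM for Cyp4a with TMM factors, and it changed sign for both without them, to -196.0 and -75.0 CPM.

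**Figure D3:**
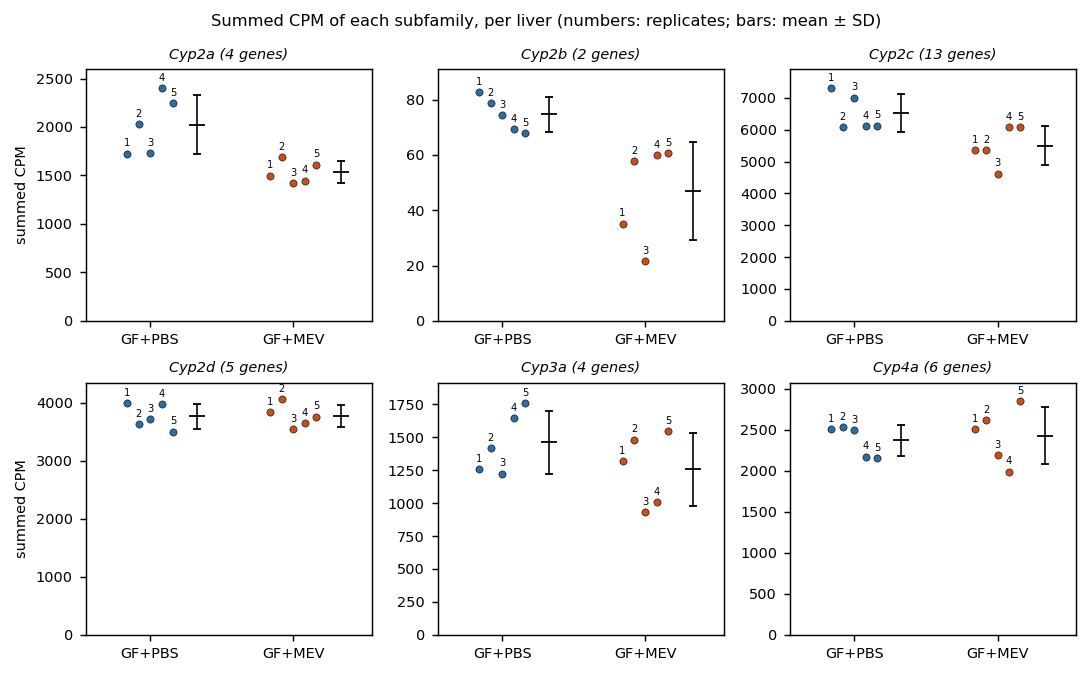
Summed CPM (y axis, from 0) of 6 P450 subfamilies in each liver, numbered by replicate, with the group mean and SD beside the points. The GF+MEV and GF+PBS points separate for Cyp2a, Cyp2b and Cyp2c and overlap for Cyp2d, Cyp3a and Cyp4a.

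The largest differences lay on chromosome 7. Of the 8 P450 genes listed there between 25897620 and 27133660 of GRCm38 (Cyp2b10, Cyp2b9, Cyp2a4, Cyp2g1, Cyp2a5, Cyp2a22, Cyp2a12 and Cyp2f2 in order), 4 were called lower and none higher, with a median log2 fold change of -0.64, against 3.52% of all tested genes called lower and a median of -0.0037. The 12 listed Cyp2c genes of the chromosome 19 cluster, which leaves out Cyp2c23, had 1 gene called lower and a median of -0.22. The 5 Cyp2d genes on chromosome 15 and the 6 Cyp4f genes on chromosome 17 had none called. Within the chromosome 7 stretch, Cyp2a12 and Cyp2f2 at its far end had log2 fold changes of 0.01 (edgeR adjusted p = 0.974) and 0.12 (edgeR adjusted p = 0.423).

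The pair Cyp2a4 and Cyp2a5 is shown by sequence because the genes are near copies that were called lower by different amounts. Cyp2a4 is the female-biased testosterone 15alpha-hydroxylase and Cyp2a5 the coumarin 7-hydroxylase. The bases before their first annotated exon, from the RefSeq promoter table of GRCm38.p6, read on the + strand chr7:26306942-26307158 for Cyp2a4 and chr7:26835089-26835304 for Cyp2a5, with capitals at the bases that differ.
Cyp2a4: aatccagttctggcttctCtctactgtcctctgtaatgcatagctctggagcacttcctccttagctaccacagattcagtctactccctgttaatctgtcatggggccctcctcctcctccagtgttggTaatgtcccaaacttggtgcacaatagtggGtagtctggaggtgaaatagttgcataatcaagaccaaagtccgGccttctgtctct
Cyp2a5: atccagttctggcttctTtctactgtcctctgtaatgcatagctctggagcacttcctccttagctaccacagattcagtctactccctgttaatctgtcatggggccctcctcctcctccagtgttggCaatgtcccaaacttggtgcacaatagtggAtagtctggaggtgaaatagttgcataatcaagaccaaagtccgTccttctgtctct
Of 216 aligned bases, 4 differed and 98.1% were identical. The transcripts share sequence too, as 22.1% of the 75-base words of Cyp2a4 also occur in another gene, most often Cyp2a5, and how reads matching both were counted is not stated.

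Cyp2a5 (ENSMUSG00000005547, chromosome 7, 26835305 to 26843548) held 859, 980, 805, 815 and 935 CPM in GF+MEV replicates 1 to 5. In GF+PBS it held 1087, 1355, 1107, 1668 and 1561 CPM. Each GF+MEV liver lay under every GF+PBS liver, and the GF+PBS livers were spread more widely, with replicates 1 and 3 nearest to GF+MEV. The group means were 879 ± 76.4 and 1356 ± 261.6 CPM (SD, n = 5), a log2 fold change of -0.63 (SE 0.14, edgeR adjusted p = 0.00315).

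Cyp2a4 (ENSMUSG00000074254, chromosome 7, 26307169 to 26315088) was far less abundant, at 5.49, 1.03, 1.98, 1.24 and 8.03 CPM in GF+MEV and 9.83, 27.5, 7.92, 19.7 and 17.5 CPM in GF+PBS. GF+MEV replicate 5 lay just above GF+PBS replicate 3, and the other livers did not cross. This gave a log2 fold change of -2.24 (SE 0.65, edgeR adjusted p = 0.00821), a 4.71-fold lower level in GF+MEV, from 15 to 125 reads per library in GF+MEV and 133 to 491 in GF+PBS. Its exons overlap Gm42375 on the other strand, and counting by strand is not stated.

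Cyp2a4 stood at 0.106% to 0.859% of the Cyp2a5 level in GF+MEV and at 0.715% to 2.03% in GF+PBS. The mean log2 ratio of the 2 genes was lower in GF+MEV, by a difference of -1.93 (SE 0.64), given without a test because the pair was chosen after its values were seen. Summed as 1 unit, Cyp2a4 and Cyp2a5 differed by -0.64 on the log2 scale (edgeR adjusted p = 0.0028), since Cyp2a5 supplied nearly all of the reads.

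Cyp2a22 (ENSMUSG00000091867, chromosome 7, 26931631 to 26939384, - strand), a little studied member of the subfamily, was called lower. Its levels were 4.94, 3.93, 2.85, 2.58 and 6.75 CPM in GF+MEV and 7.33, 9.86, 5.48, 12.1 and 11.3 CPM in GF+PBS. Only GF+MEV replicate 5 and GF+PBS replicate 3 crossed. The log2 fold change was -1.15 (SE 0.32, edgeR adjusted p = 0.0134). Against Cyp2a12, its neighbour which lay between 609 and 707 CPM in every liver (log2 fold change 0.01), it stood at 0.411% to 1.02% in GF+MEV and at 0.899% to 1.73% in GF+PBS.

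Cyp2b9, a female-biased steroid hydroxylase of the Cyp2b subfamily, showed the largest difference of the 52 genes. The bases before its start, RefSeq GRCm38.p6 chr7:26173159-26173408 on the + strand, are shown for the matches to 2 of the motifs searched, in capitals, TTGCNNAA and AGGTCA in that order.
Cyp2b9: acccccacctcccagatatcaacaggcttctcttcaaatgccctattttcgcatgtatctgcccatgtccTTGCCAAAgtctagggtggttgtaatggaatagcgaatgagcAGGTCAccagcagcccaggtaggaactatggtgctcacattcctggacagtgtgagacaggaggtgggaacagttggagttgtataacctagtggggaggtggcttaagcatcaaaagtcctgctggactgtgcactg
Cyp2b9 (ENSMUSG00000040660, chromosome 7, 26173411 to 26210661) held 3.60, 0.897, 0.241, 1.12 and 9.51 CPM in GF+MEV and 14.7, 37.1, 13.2, 25.7 and 29.5 CPM in GF+PBS. The groups did not overlap, with GF+MEV replicate 5 nearest to GF+PBS replicate 3. On the log2 scale the fold change was -3.01 (SE 0.87, edgeR adjusted p = 0.0037), an 8.08-fold lower level in GF+MEV. GF+MEV libraries held between 5 and 148 reads and GF+PBS libraries between 221 and 662, so the size of the fold rests on few reads in some livers. Without GF+MEV replicate 5 the log2 fold change of Cyp2b9 was -4.08 (edgeR adjusted p = 1.2e-04), and limma-voom gave -3.93 with all livers.

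The levels of Cyp2b9, Cyp2a4 and Cyp2a22 were ordered alike within the groups. Among GF+MEV livers, replicate 5 was highest and replicate 1 next for all 3 genes. Among GF+PBS livers, replicates 1 and 3, which are alike, were the lowest for all 3. Their neighbour Cyp2b10, the gene used most often as a readout of CAR, was ordered otherwise. It held 31.6, 56.9, 21.5, 58.7 and 51.1 CPM in GF+MEV and 68.1, 41.8, 61.3, 43.8 and 38.2 CPM in GF+PBS, with a log2 fold change of -0.21 (SE 0.33, edgeR adjusted p = 0.682). Cyp2g1, an olfactory P450 expressed weakly in liver, ran from 2.01 to 3.81 CPM in GF+MEV and from 3.69 to 7.34 CPM in GF+PBS, with a log2 fold change of -0.65 (SE 0.24, edgeR adjusted p = 0.0817), and was called by DESeq2.

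**Figure D4:**
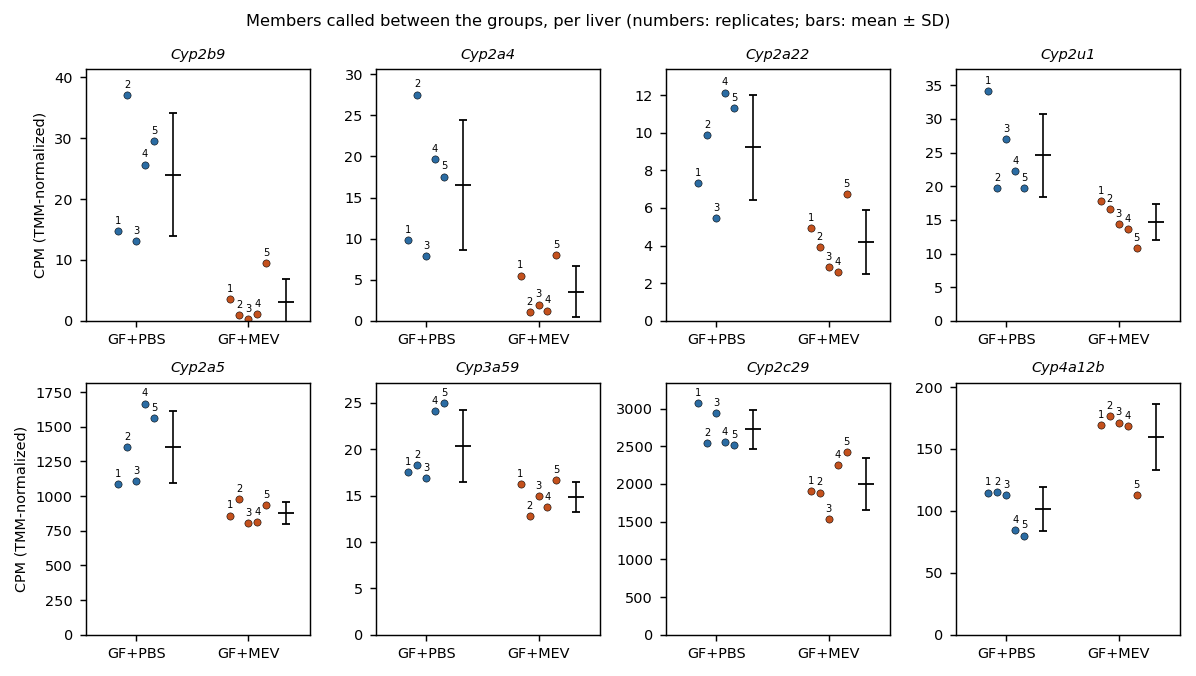
CPM (y axis, from 0) of the 8 called P450 genes in each liver, numbered by replicate, with group mean and SD beside the points (the lower SD bar of Cyp2b9 in GF+MEV is cut at 0). GF+MEV points lie below GF+PBS points for 7 genes, with 1 liver of each group crossing for Cyp2a4 and Cyp2a22, and above for Cyp4a12b except in GF+MEV replicate 5.

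Cyp2c29, a major arachidonic acid epoxygenase of mouse liver, was the most abundant of the called genes. The bases before its main first exon, RefSeq GRCm38.p6 chr19:39286835-39287073 on the + strand, lie inside an intron of a longer annotated Cyp2c29 transcript and hold 1 AGGTCA, in capitals.
Cyp2c29: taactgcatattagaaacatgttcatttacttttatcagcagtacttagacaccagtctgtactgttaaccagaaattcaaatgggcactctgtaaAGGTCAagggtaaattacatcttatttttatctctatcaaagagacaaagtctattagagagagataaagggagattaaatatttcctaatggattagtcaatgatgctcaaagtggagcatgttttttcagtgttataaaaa
Cyp2c29 (ENSMUSG00000003053, chromosome 19, 39269405 to 39330713) held 1904, 1886, 1530, 2248 and 2419 CPM in GF+MEV and 3070, 2546, 2941, 2556 and 2520 CPM in GF+PBS. The groups did not overlap, and the like pair of GF+PBS replicates 1 and 3 was the highest. This gave a log2 fold change of -0.45 (SE 0.13, edgeR adjusted p = 0.0191). The adjusted p became 0.0521 without GF+PBS replicate 3 and 0.0877 with both GF+PBS pairs summed. Its exons overlap the pseudogene Cyp2c53-ps on the same strand.

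No other Cyp2c gene, of 12, was called. Fold changes on the log2 scale ran from -0.51 in Cyp2c55, a member best known from the intestine (SE 0.24, edgeR adjusted p = 0.122), to 0.24 in Cyp2c70, which makes muricholic acids from bile acids (SE 0.13, edgeR adjusted p = 0.212). Cyp2c70 held 453, 403, 476, 509 and 361 CPM in GF+MEV and 443, 389, 398, 314 and 317 CPM in GF+PBS, overlapping groups. Cyp2c50 and Cyp2c54, abundant epoxygenases, had log2 fold changes of -0.21 (edgeR adjusted p = 0.245) and -0.31 (edgeR adjusted p = 0.0919). DESeq2 called Cyp2c54, at an adjusted p of 0.0496, and edgeR did so without GF+MEV replicate 5, at an adjusted p of 0.0475.

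Cyp2c40 and Cyp2c69, which are listed as female-biased, varied widely between livers and were not called (log2 fold changes -0.02 and -0.0043). Cyp2c40 held 26.3, 9.38, 19.0, 37.3 and 17.9 CPM in GF+MEV and 31.1, 30.4, 30.3, 9.96 and 10.03 CPM in GF+PBS. GF+PBS replicates 4 and 5, which are alike, were thus far below the other GF+PBS livers. Cyp2c69 was also lowest in these livers of GF+PBS, with 1.92 to 2.78 CPM in replicates 4 and 5 and 8.87 to 9.99 CPM in replicates 1 to 3. Cyp2c40, Cyp2c67, Cyp2c68 and Cyp2c69 share between 28.5% and 45.9% of their 75-base words with other genes. Summed as 1 unit, they differed by 0.01 on the log2 scale (edgeR adjusted p = 0.977).

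Cyp3a59 was the only called member of the Cyp3a subfamily, which metabolizes steroids and many drugs. The bases before its first exon, RefSeq GRCm38.p6 chr5:146079008-146079256 on the + strand, hold AGAACA and then AGGTCA, the latter on both strands, in capitals.
Cyp3a59: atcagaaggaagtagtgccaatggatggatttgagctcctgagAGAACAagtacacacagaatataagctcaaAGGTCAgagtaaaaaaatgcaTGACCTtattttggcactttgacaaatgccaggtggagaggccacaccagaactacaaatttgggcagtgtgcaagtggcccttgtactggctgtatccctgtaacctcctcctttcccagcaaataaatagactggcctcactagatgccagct
Cyp3a59 (ENSMUSG00000061292, chromosome 5, 146079257 to 146113287) held 16.2, 12.8, 14.97, 13.8 and 16.6 CPM in GF+MEV and 17.5, 18.3, 16.9, 24.1 and 25.0 CPM in GF+PBS. The groups did not overlap but lay close, and GF+PBS replicates 4 and 5 were set above the other livers. The log2 fold change was -0.45 (SE 0.14, edgeR adjusted p = 0.0341). The call was lost in 5 of 10 fits that left out 1 liver, with adjusted p up to 0.095 without GF+PBS replicate 4. The call was also lost with both GF+PBS pairs summed (adjusted p = 0.0856). Of the exon words of Cyp3a59, 13.2% occur in another gene, most often Cyp3a25. Cyp3a59 was 2.77% to 3.69% of Cyp3a25 in GF+MEV and 3.35% to 4.46% in GF+PBS, ranges that overlapped. How reads matching both genes were counted is not stated, and their part in the call was not tested.

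Cyp3a11, the main drug-metabolizing Cyp3a enzyme of mouse liver and the usual readout of PXR, varied more between livers of a group than between the group means. It held 723, 890, 359, 495 and 924 CPM in GF+MEV and 624, 789, 597, 964 and 1009 CPM in GF+PBS. On the log2 scale the fold change was -0.23 (SE 0.30, edgeR adjusted p = 0.618). Cyp3a25, of the same cluster, had GF+MEV livers between 372 and 481 CPM and GF+PBS livers between 484 and 598 CPM, groups that did not overlap. It was not called by edgeR, at a log2 fold change of -0.24 (SE 0.08, adjusted p = 0.0791), and was called with upper-quartile factors and by DESeq2, at adjusted p of 0.0357 and 0.044. Cyp3a13 had a log2 fold change of 0.01 (SE 0.06, edgeR adjusted p = 0.941).

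Cyp2u1 (ENSMUSG00000027983, chromosome 3, 131288441 to 131303227, - strand), a fatty acid hydroxylase, was lower in GF+MEV. It held 17.8, 16.6, 14.4, 13.6 and 10.9 CPM in GF+MEV and 34.1, 19.7, 27.0, 22.3 and 19.7 CPM in GF+PBS. The groups did not overlap, and GF+PBS replicate 1 was the highest liver. This gave a log2 fold change of -0.75 (SE 0.19, edgeR adjusted p = 0.00999). Its exons overlap 4930534D22Rik on the other strand.

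Cyp4a12b (ENSMUSG00000078597, chromosome 4, 115411624 to 115439034), a male-biased arachidonic acid omega-hydroxylase, was the gene called higher. It held 169, 177, 171, 169 and 113 CPM in GF+MEV and 115, 115, 113, 84.5 and 80.0 CPM in GF+PBS. The first 4 GF+MEV livers lay above every GF+PBS liver, and replicate 5 lay among them. The log2 fold change was 0.66 (SE 0.17, edgeR adjusted p = 0.0062), or 160 ± 26.4 against 102 ± 17.6 CPM (SD, n = 5).

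Its near copy Cyp4a12a held 424, 539, 408, 472 and 309 CPM in GF+MEV and 412, 312, 410, 251.9 and 252.6 CPM in GF+PBS, with a log2 fold change of 0.39 (SE 0.21, edgeR adjusted p = 0.166). Of the 75-base words of Cyp4a12b, 41.3% occur in another gene, most often Cyp4a12a. With the 2 genes summed, the log2 fold change was 0.46 and the adjusted p of edgeR 0.0815, so the call on Cyp4a12b was not kept by the pair. Cyp4a12b was 32.8% to 42.0% of Cyp4a12a in GF+MEV and 27.5% to 37.0% in GF+PBS, ranges that overlapped.

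None of the 4 Cyp4a genes listed as PPARA-responsive, Cyp4a10, Cyp4a14, Cyp4a31 and Cyp4a32, was called. Cyp4a14, a fatty acid omega-hydroxylase, held 1138, 1128, 933, 708 and 1448 CPM in GF+MEV and 1166, 1224, 1171, 1116 and 1114 CPM in GF+PBS. The coefficient of variation was 25.6% in GF+MEV and 3.94% in GF+PBS. On the log2 scale the fold change was -0.11 (SE 0.17, edgeR adjusted p = 0.696), and that of Cyp4a10 was -0.06 (SE 0.13, edgeR adjusted p = 0.808). Cyp4a32 had GF+MEV livers from 58.8 to 81.3 CPM and GF+PBS livers from 48.6 to 58.4 CPM, without overlap (log2 fold change 0.27, SE 0.10, edgeR adjusted p = 0.0957). It shares 28.0% of its words with other genes, most often Cyp4a10, and the sum of both differed by -0.03 on the log2 scale (edgeR adjusted p = 0.90). Cyp4a31 had a log2 fold change of 0.18 (SE 0.22, edgeR adjusted p = 0.626).

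Both Cyp1a genes, the AHR targets of the list with Cyp1b1 not listed in the table, were not called. Cyp1a2, which oxidizes caffeine and aromatic amines, held 1131, 1228, 1056, 1261 and 985 CPM in GF+MEV and 1263, 1170, 1254, 1448 and 1351 CPM in GF+PBS. The groups overlapped (log2 fold change -0.20, SE 0.08, edgeR adjusted p = 0.161). Cyp1a1, the most inducible AHR target, stayed between 1.72 and 3.41 CPM in all livers (log2 fold change 0.17, SE 0.20, edgeR adjusted p = 0.711).

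Other abundant members were also not called. Cyp2d9, a male-biased steroid 16alpha-hydroxylase, had a log2 fold change of 0.13 (SE 0.08, edgeR adjusted p = 0.355). Cyp2d26 was lower in every GF+MEV liver, at 897 to 1041 CPM against 1071 to 1208 CPM, with a log2 fold change of -0.17 (SE 0.05, edgeR adjusted p = 0.103). Cyp2j5, an epoxygenase, and Cyp4f14, which inactivates leukotrienes, had log2 fold changes of -0.12 (SE 0.05, edgeR adjusted p = 0.264) and -0.12 (SE 0.03, edgeR adjusted p = 0.163). Cyp4b1 held 4.97 to 11.2 CPM in GF+MEV and 8.71 to 15.6 CPM in GF+PBS, with a log2 fold change of -0.45 (SE 0.26, edgeR adjusted p = 0.209).

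Groups that did not overlap were counted for 10 of the 52 genes, 19.2%, against 7.39% of all tested genes. GF+MEV was lower for 8 of them (Cyp2a5, Cyp2b9, Cyp2c29, Cyp2d26, Cyp2u1, Cyp3a25, Cyp3a59 and Cyp4f14) and higher for Cyp2j9 and Cyp4a32. For the 8 called genes an exact two-sided permutation test of the mean CPM, which over all labelings of 5 against 5 livers cannot go under 0.00794, gave that value for Cyp2a5, Cyp2b9, Cyp2c29, Cyp2u1 and Cyp3a59, 0.0159 for Cyp2a4 and Cyp2a22, and 0.0238 for Cyp4a12b. Any gene whose groups do not overlap gets 0.00794, and so did Cyp2d26, Cyp3a25, Cyp4f14, Cyp2j9 and Cyp4a32, which were not called. On the same livers this test therefore adds no separate support to the calls. The spread between livers was larger in GF+MEV than in GF+PBS for 33 of the 52 genes, with a median coefficient of variation of 13.4% against 10.2%. Both like pairs of GF+PBS entered here as separate livers, and the same count over all genes is not given. The part of the pairs in this difference was not tested.

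By the lists of regulated P450 genes, 2 of 6 listed female-biased members were called lower (Cyp2b9 and Cyp2a4) and none higher, against 3.52% of all tested genes called lower and 4.12% called higher, while 5 others of that list were not in the table. Of 6 male-biased members, Cyp4a12b was called higher, Cyp2u1 lower, and Cyp2d9, Cyp4a12a, Cyp2f2 and Cyp1a2 were not called. Of 11 members listed as CAR- or PXR-responsive, Cyp2b9, Cyp2c29 and Cyp2a5 were called lower and none higher, with a median log2 fold change of -0.24. A negative fold change was held by 10 of the 11, against 6198 of the 12147 tested genes. For 4 of the 11 the groups did not overlap, all lower in GF+MEV, or 36.4% against 7.39% of all tested genes. The lists share genes, as Cyp2b9 stands in 2 of them.

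The partners of the P450 enzymes included 2 called genes of 11, against 7.64% of all tested genes. Alas1, which makes the first committed precursor of haem, held 1020, 1295, 1363, 1126 and 1094 CPM in GF+MEV and 172, 755, 169, 489 and 482 CPM in GF+PBS. The groups did not overlap, and the like pair of GF+PBS replicates 1 and 3 was far below the other livers. This gave a log2 fold change of 1.51 (SE 0.44, edgeR adjusted p = 0.0113). Por, the electron donor of the whole family, held 605, 694, 624, 507 and 659 CPM in GF+MEV and 275, 528, 265, 530 and 487 CPM in GF+PBS. The same GF+PBS pair was lowest, the groups overlapped, and Por was not called (log2 fold change 0.57, SE 0.24, edgeR adjusted p = 0.0777). Cyb5b, a mitochondrial outer membrane cytochrome b5, was called lower at 485 ± 47.5 against 604 ± 19.96 CPM (SD, n = 5), with a log2 fold change of -0.32 (SE 0.07, edgeR adjusted p = 0.0104).

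Of 25 regulators of P450 genes in the table, 3 were called higher and 2 lower, against 4.12% and 3.52% of all tested genes. The xenobiotic receptor gene Nr1i2 (PXR) held 110, 120, 105, 80.1 and 108 CPM in GF+MEV and 60.0, 67.3, 59.1, 76.3 and 70.4 CPM in GF+PBS. No GF+MEV liver fell within the GF+PBS range. Its log2 fold change was 0.65 (SE 0.12, edgeR adjusted p = 8.6e-04). Ahr, the dioxin receptor, held 52.6, 77.9, 47.1, 52.5 and 55.3 CPM in GF+MEV and 29.0, 36.6, 32.9, 24.9 and 30.8 CPM in GF+PBS, again without overlap. Its log2 fold change was 0.89 (SE 0.15, edgeR adjusted p = 5.1e-04).

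Hnf4a, a hepatocyte master regulator, was called higher at 719 ± 39.3 against 526 ± 36.8 CPM (SD, n = 5), with a log2 fold change of 0.45 (SE 0.06, edgeR adjusted p = 3.6e-04). Cebpa, another hepatocyte factor, was called lower by 0.29 (edgeR adjusted p = 0.0138) and Nfe2l2, which encodes the oxidative stress factor NRF2, was lower by 0.50 on the log2 scale (edgeR adjusted p = 3.7e-04). The CAR gene Nr1i3 was not called (log2 fold change 0.14, SE 0.13, edgeR adjusted p = 0.491). Nor were Ppara (0.09, adjusted p = 0.815), Rxra (0.25, adjusted p = 0.0778), Rxrb (-0.12, adjusted p = 0.277), Nr3c1 (0.05, adjusted p = 0.784), Nr0b2 (0.26, adjusted p = 0.258), Nr1h4 (0.01, adjusted p = 0.957) and Esr1 (0.08, adjusted p = 0.805), all as edgeR log2 fold changes.

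**Figure D5:**
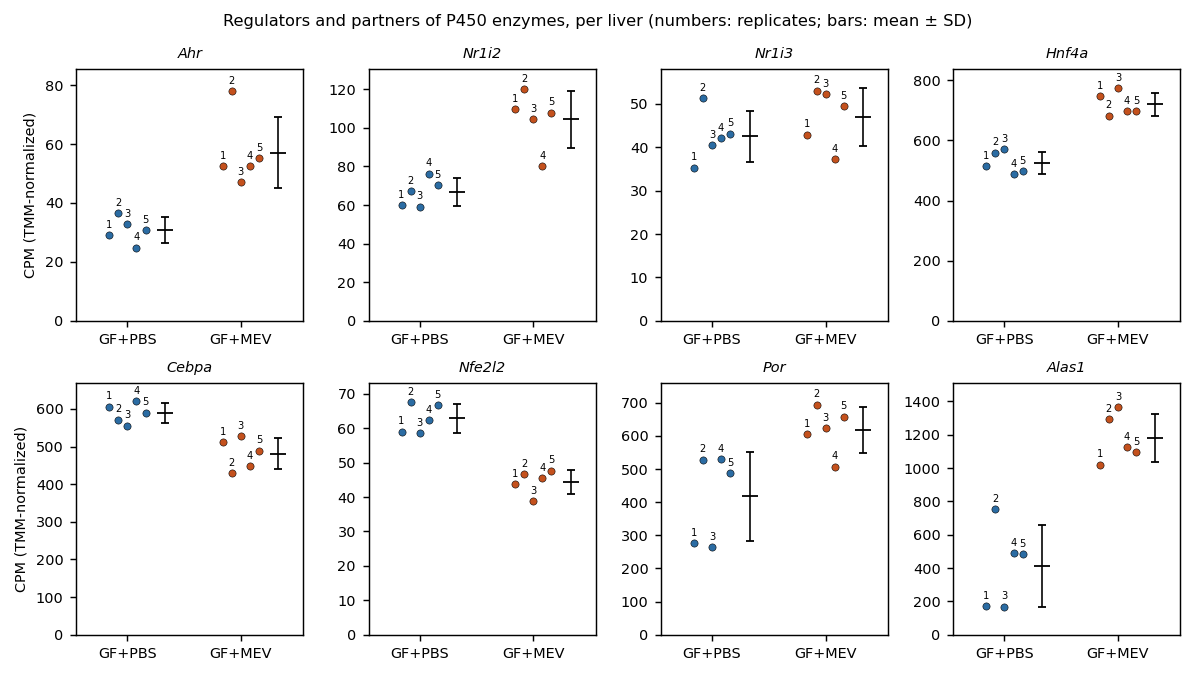
CPM (y axis, from 0) of 6 regulators and 2 partners of P450 enzymes in each liver, numbered by replicate, with group mean and SD beside the points. Ahr, Nr1i2, Hnf4a and Alas1 separate with GF+MEV higher, Cebpa and Nfe2l2 separate with GF+MEV lower, and GF+PBS replicates 1 and 3 lie lowest for Por and Alas1.

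Targets of the same receptors outside the family were called only lower for AHR, where 1 of 3 was not called. For PPARA they were called in both directions, and 12 of 14 were not called. For the counts that follow, the shares over all tested genes were 4.12% called higher and 3.52% called lower. Of 3 AHR targets, Nqo1 was lower by 0.51 (edgeR adjusted p = 0.0229) and Ugt1a6a by 0.48 on the log2 scale (edgeR adjusted p = 0.045), calls that were lost in 3 and 8 of 19 alternatives. Of 14 PPARA targets, Angptl4, an inhibitor of lipoprotein lipase, was higher at 184 ± 15.6 against 66.5 ± 10.6 CPM (log2 fold change 1.47, edgeR adjusted p = 2.8e-07), and Acaa1b, a peroxisomal thiolase, was lower by 0.31 (edgeR adjusted p = 0.00565). Of 11 other sex-biased genes, the male pheromone protein gene Mup20 was higher (log2 fold change 0.84, edgeR adjusted p = 0.00197). Abcd2, which is higher in females, was lower by 0.73 (edgeR adjusted p = 0.0372), a call lost in 8 of 19 alternatives. The remaining 9 were not called, with log2 fold changes from -2.10 to 0.97 that did not follow 1 direction.

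Genes of the liver zones around the P450 genes were also counted, since many P450 enzymes lie near the central vein. Of 11 other pericentral genes, Rgn, Lect2, Tbx3 and Axin2 were called lower and none higher, with log2 fold changes of -0.24, -0.50, -0.97 and -1.01. Among all tested genes 3.52% were called lower and 4.12% higher. The remaining 7 pericentral genes were not called, and 4 of the 11 had a positive fold change, among them Glul (0.01) and Slc1a2 (0.23). Of 11 periportal genes, Sds, Cps1, Ass1, Arg1, Pck1 and Etnppl were called higher and none lower, from 0.31 in Arg1 to 1.71 in Pck1. The remaining 5 were not called, and 3 of the 11 had a negative fold change (Sox9 at -0.98, Aldh1b1 at -0.26 and Hal at -0.15). The calls of Rgn and Cps1 were lost in 10 and 11 of 19 alternatives. Of the pericentral P450 genes, Cyp2a5 and Cyp2c29 were called lower, and Cyp2e1 and Cyp1a2 were not called, as given above. The periportal P450 Cyp2f2, which bioactivates naphthalene, had a log2 fold change of 0.12 (SE 0.09). The part of zonation in the P450 values was not tested.

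Promoter windows of 300 bases, 250 before and 50 after the RefSeq start, were found for 41 of the 52 genes and for 6 of the 8 called genes, all of them lower in GF+MEV. Letters were searched on both strands, and they are a description of the windows and not of binding. AGGTCA, the core read by nuclear receptors, was held by 12 of 41 P450 genes, 29.3%, and by 18.1% of 27025 genes. It was present in 5 of the 6 windows of lower genes, before the start in Cyp2b9, Cyp2c29 and Cyp3a59 and after it in Cyp2a4 and Cyp2a5. At least 2 copies were held by 4.88% of the P450 genes and 2.03% of all genes. The C/EBP letters TTGCNNAA were held by 26.8% and 12.2%, among them the windows of Cyp2a4, Cyp2a5 and Cyp2b9. The AHR core GCGTG was held by 22.0% and 35.2%, the glucocorticoid receptor letters AGAACA by 29.3% and 21.3%, and the FOXO letters GTAAACA by 9.76% and 4.05%. Member windows share ancestry, so these shares do not count independent sequences.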

How the data were processed

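Liver RNA of 10 germ-free C57BL6 mice was sequenced. Per the labels and the study's methods, STAR 2.7.3a placed the reads on GRCm38 and HTSeq counted them per Ensembl gene, and the authors deposited these as raw counts. The methods also state that genes under 20 counts over all samples were removed before analysis. Every gene of the count table had counts above 0 in at least 7 of the 10 libraries used. Whether low counts are why 29 members are not listed was not tested. Ensembl identifiers were matched to GENCODE vM21. Another 5 columns of the table match no described sample and were not used. Genes with at least 20 counts in total were tested with edgeR 4.0.16 in R 4.3.3 (TMM, quasi-likelihood test, Benjamini-Hochberg threshold 0.05), a fit on the treatment group alone. SEs were computed on log2 CPM, for which a prior count of 2 was added. Alternatives used limma 3.58.1 and DESeq2 1.42.0, other scalings and filters, a replicate block and subsets of livers. The steps were tested on simulated data. The members and lists were chosen with earlier results of these data known.

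Genes were named by rule: called members, the most abundant member of the larger subfamilies, the extremes of Cyp2a, Cyp2b, Cyp2c, Cyp2d, Cyp3a and Cyp4a, up to 4 abundant genes of each P450 list, and called genes, nuclear receptors and Por of the other lists. Members outside this rule (Cyp2c23, Cyp2c37, Cyp2c38, Cyp2c67, Cyp2c68, Cyp2c69, Cyp2g1, Cyp2j9, Cyp3a11) were named after their values were seen. A listed regulator is not reported here. Sequence shared between genes was the share of 75-base words of the exons found in another gene. Multi-mapped reads and strand in counting are not described in the sources used here.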

Additional observations from a re-analysis of the deposited data

Results flagged for a closer look

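Among 140 groups of 5 livers (each named gene and each of 6 subfamily sums in GF+MEV and in GF+PBS), 8 held a liver that stood far from the other 4, by Dixon's criterion at the 95% level. Chance alone flags about 1 in 20 such groups, or 7 here.

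Of the P450 genes, Cyp4a12b stood at 113 CPM in GF+MEV replicate 5, where the remaining livers of the group held 169 to 177 CPM, and this is the liver that crosses the GF+PBS range. Without it the log2 fold change was 0.76 (edgeR adjusted p = 6.0e-04). In GF+PBS replicate 2, Cyp4a31 stood at 22.7 CPM (others 13.2 to 15.5 CPM). Ahr stood at 77.9 CPM in GF+MEV replicate 2, against 47.1 to 55.3 CPM, and its call did not rest on that liver (log2 fold change 0.75, edgeR adjusted p = 2.6e-04 without it). Rxra stood at 652 CPM in GF+PBS replicate 2 (others 487 to 534 CPM), and it was called when that liver was left out (log2 fold change 0.32, edgeR adjusted p = 0.00979). Nqo1 stood at 7.26 CPM in GF+MEV replicate 1, against 8.79 to 9.18 CPM, and its call was lost without that liver (log2 fold change -0.45, edgeR adjusted p = 0.0587). Rxrb stood at 32.8 CPM in GF+MEV replicate 5, against 35.3 to 35.8 CPM. Sds stood at 414 CPM in GF+MEV replicate 3, against 276 to 316 CPM. Tbx3 stood at 44.7 CPM in GF+PBS replicate 2 (others 26.7 to 28.2 CPM).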

How the results depend on the processing

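DESeq2 called 11 P450 genes lower and 2 higher, where edgeR called 7 and 1. With near-identical members summed, an alternative chosen after seeing the data, 6 were called lower and 0 higher. Other scalings, limma-voom and other filters gave 6 to 8 called lower and 1 called higher. Leaving out each liver in turn gave 6 to 10 genes called lower and 1 called higher. Both GF+PBS pairs summed left 5 lower and 1 higher. Cyp2b9 has 5 counts in GF+MEV replicate 3 and was not tested with at least 10 counts in every library. Of the called members, Cyp2c29 lost its call in 2 alternatives and Cyp3a59 in 6. Calls were gained by Cyp2c54, Cyp2d26, Cyp2g1, Cyp3a25 (lower) and Cyp2j9 (higher) under DESeq2, by Cyp2c37, Cyp2c38 and Cyp2c54 without GF+MEV replicate 5, and by Cyp3a25 with upper-quartile factors. Of the other listed genes, Cps1 lost its call in 11 of 19 alternatives (edgeR adjusted p up to 0.107), Rgn in 10 (up to 0.193), Abcd2 in 8 (up to 0.0924), Ugt1a6a in 8 (up to 0.109) and Nqo1 in 3 (up to 0.0617), including with most or some single livers left out. Cebpa and Cyb5b lost theirs with both GF+PBS pairs summed, and Por was called with the block and without GF+PBS replicate 2 (adjusted p = 0.0444). Among the genes refitted under the alternatives, which leave out the cell type markers, no called log2 fold change changed sign. The replicate numbers of the titles did not pair the livers, as same-numbered livers of the groups correlated between -0.12 and 0.18 in their deviations and GF+MEV replicate 2 correlated best with GF+PBS replicate 3. A fit with the replicate number as a block called 8 members lower and 1 higher, adding Cyp2c38 to the same 8 genes. With upper-quartile factors 41.2% of all called genes were higher, against 53.9% with TMM, and the median of all genes moved from -0.0037 to -0.046. The difference in the summed level changed sign with the scaling for Cyp2d and Cyp4a, as given above, and kept its sign for Cyp2a, Cyp2b, Cyp2c and Cyp3a under each scaling and with each liver left out. Among the called P450 genes, low depth bears on Cyp2b9, with 5 to 662 reads a library, and Cyp2a4. The causes of these changes were not tested.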
